A study of Anser cygnoides with 18 samples.

Results

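OCA2 encodes a membrane protein of pigment organelles, and it stood out in these goose libraries because its transcript was far higher in the adipose tissue of overfed birds than in that of controls. The gene is described here with 8 others that mark pigment cells, nerve sheath cells or its genomic neighbourhood, namely HERC2, TYR, TYRP1, DCT, MITF, KIT, EDNRB and SOX10. All 9 genes had a row among the 14628 protein-coding genes of the expression table, matched by symbol through the reference annotation. OCA2 was chosen by its feeding difference in FPKM in both adipose depots. Its feeding differences in adipose are therefore given as a description without a test. The levels of the 8 others are set beside it, and which cells carry the transcript was not tested.

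Total RNA was sequenced from liver, abdominal adipose (AA) and subcutaneous adipose (SA) of 6 male geese of the Tianfu breed, 3 per feeding group, which gave 18 libraries. Per the study's methods Tianfu is a closed meat breed bred mostly from Landes (Anser anser) with a smaller part of Sichuan White (Anser cygnoides). The reads were mapped to an Anser cygnoides genome. High-intake geese (T1 to T3) were force fed over a trial of 19 days, with meals of 130 g on day 1 that grew by 5 g a day. Control geese (C1 to C3) ate the same diet freely. All birds fasted overnight before they were killed at 145 days of age. A library is named by its goose and tissue, so that T1-AA and T1-SA came from the same bird.

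Melanocytes, the pigment cells of skin, feathers and eyes, build melanin inside melanosomes, organelles related to lysosomes. Tyrosinase (TYR) starts the synthesis, and TYRP1 and DCT work after it. The OCA2 protein lies in the melanosome membrane, where it carries chloride and holds the pH at which tyrosinase is active, and its loss causes a form of albinism in mammals. MITF is the transcription factor that switches on the pigment genes in melanocytes. KIT and EDNRB are receptors that pigment cell precursors need in mammals. SOX10 is a transcription factor of the neural crest that melanocytes and Schwann cells, the sheath cells of peripheral nerves, share. HERC2 is a large ubiquitin ligase made in most cells. In humans a stretch of DNA inside HERC2 controls OCA2 in the iris and so affects eye colour.

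OCA2 (gene7465) lies on the minus strand of scaffold NW_013185695.1 from 2123987 to 2329076 in the goose assembly used by the authors, which places genes on scaffolds and not on chromosomes. Its annotated span is 205090 bases with 3661 bases of exon. The annotation gives it 3 transcript variants, X1 with 24 exons and a protein of 852 residues, X2 with 23 exons and 816 residues, and X3 with 22 exons and 797 residues. Variants X1 and X3 share both outer ends, whereas X2 stops at 2170398. The table gives 1 value for the gene, so the variants were not told apart here. HERC2 (gene7466, 93 exons, 4831 residues) follows on the same strand from 2346410 to 2457551, and 17333 bases separate the genes.

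The other members lie on other scaffolds, and the annotation gives each the name used here. TYR (gene6072) occupies 7027997 to 7081295 on the minus strand of NW_013185681.1, and TYRP1 (gene14846) lies at 1467724 to 1478146 on the minus strand of NW_013185809.1. DCT (gene16228) runs from 400685 to 419514 on the plus strand of NW_013185849.1. MITF (gene7256) has 5 annotated variants between 4399226 and 4474434 on the plus strand of NW_013185692.1. KIT (gene3029), whose model is marked as partial, lies at 11764604 to 11802053 on the plus strand of NW_013185664.1. EDNRB (gene14930) lies at 648562 to 662682 on the minus strand of NW_013185812.1, and SOX10 (gene7635) at 4556752 to 4567262 on the minus strand of NW_013185696.1.

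Expression is given as FPKM, fragments scaled to transcript length and to all mapped fragments, so levels of different genes can be set side by side within a library. The files hold no fragment counts, so the depth behind a value is unknown. Summed over all mRNAs, FPKM came to 221093 to 438339 in 17 libraries and to 107522 in C2-SA, a library in which the authors suspected RNA of other tissues. An exact 0 can be a failed estimate, since ALB, the albumin gene, was listed at 0 in 5 of the 6 livers. Genes at that value are therefore called listed at 0. Hepatocyte genes (8 of 10 with values) summed to 18813 to 25020 FPKM in the livers and 116 to 3169 FPKM in adipose. Adipocyte genes (5 of 8 with values) summed to 557 to 3589 FPKM in adipose and 22.8 to 1530 FPKM in liver, where SCD made up most of the highest sums. ADIPOQ, the fat cell hormone gene, parted the tissues, at 21.8 to 77.4 FPKM in adipose and 0.384 FPKM or less in liver.

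OCA2 reached 5.07, 8.60 and 10.8 FPKM in high-intake AA (T1 to T3), against 0.110, 0.165 and 0.197 FPKM in control AA (C1 to C3). In high-intake SA it reached 8.07, 7.17 and 17.4 FPKM, against 0.980, 0.235 and 0.336 FPKM in control SA. No high-intake adipose library overlapped the controls of its tissue, and goose T3 had the highest value in both depots. Of the genes tested, OCA2 included, 20.1% in AA and 13.1% in SA were higher without overlap. In the livers OCA2 was listed at 0 in T1-L and T2-L and stood at 0.0133 FPKM in T3-L, while controls C1-L and C3-L were listed at 0 and C2-L stood at 0.0287 FPKM. In bulk tissue, more cells of a type and more RNA per cell cannot be told apart.

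The means of OCA2 were 8.17 ± 2.90 FPKM in high-intake AA and 0.157 ± 0.044 FPKM in control AA (SD, n = 3 each), a ratio of 51.9. In SA they were 10.9 ± 5.65 FPKM in the high-intake group and 0.517 ± 0.404 FPKM in the control group (SD, n = 3 each), a ratio of 21.0. On the scale of log2(FPKM + 1), which shrinks the change of low genes, the difference was 2.93 (SE 0.25) in AA and 2.90 (SE 0.35) in SA. Without C2-SA the difference in SA was 2.77, and with 0.1 in place of 1 inside the log the differences were 4.95 in AA and 4.23 in SA. Divided by the summed FPKM of each library (TPM), the ratios of means were 37.2 in AA and 14.8 in SA. These are the values that chose the gene, and no test is attached to them.

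**Figure D1:**
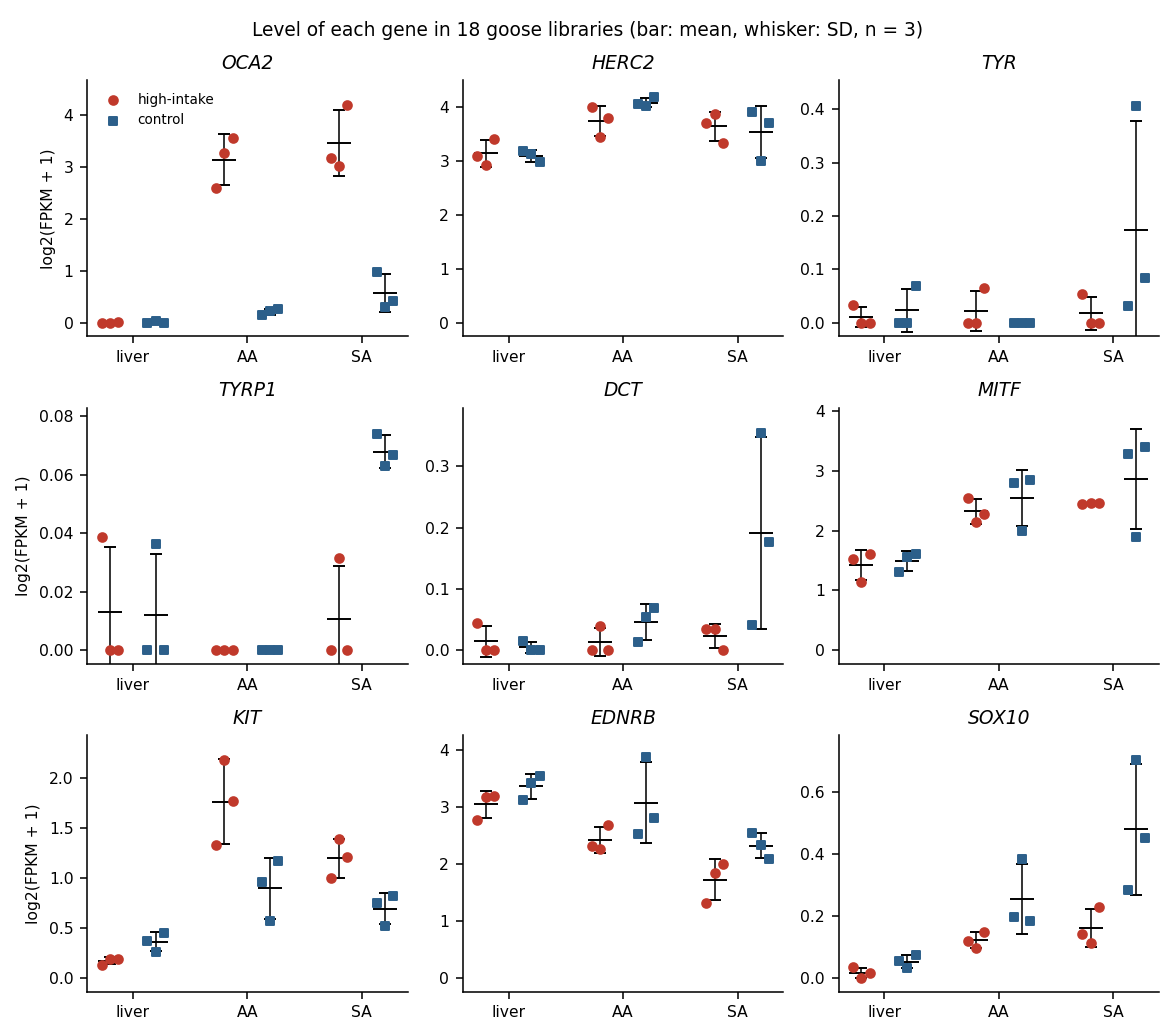
Level of the 9 genes in each library as log2(FPKM + 1), with high-intake geese (circles) left of control geese (squares) in liver, AA and SA; bars and whiskers give the mean and SD of 3 geese, and each panel has its own axis. OCA2 stood at 5.07 to 17.4 FPKM in high-intake adipose and below 1 FPKM elsewhere, while TYR, TYRP1 and DCT reached no more than 0.326 FPKM in any library.

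Ordered by mean, the 6 groups ran from high-intake SA over high-intake AA, control SA and control AA to control liver and high-intake liver. The libraries of both high-intake adipose groups overlapped, as did those of both liver groups, whereas the neighbours between them in this order did not overlap. Among all mRNAs of its library, OCA2 ranked between the percentiles 55.7 and 72.8 in high-intake AA and 63.8 and 82.4 in high-intake SA. In control AA it ranked between 16.3 and 19.7, and in control SA between 10.5 and 32.3. The transcript thus passed the middle of the distribution only in the high-intake adipose libraries.

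Relative to HERC2, its neighbour on the same strand, OCA2 stood at 0.339 to 0.863 of the HERC2 level in high-intake AA, against 0.00702 to 0.0115 in control AA. The ratio was 0.522 to 1.90 in high-intake SA, against 0.0278 to 0.0699 in control SA. Only in T3-SA was OCA2 the higher of the pair. The summed level of 5 adipocyte genes was also higher in high-intake adipose, at 3432 to 3589 FPKM in AA and 3135 to 3378 FPKM in SA, against 1008.5 to 2354 FPKM in control AA and 557 to 1984 FPKM in control SA. LPL, SCD and PLIN1 made up most of the sum. Of the other members, PPARG lay below all controls in AA, where 7.17% of the genes tested did so. It stood there at 80.3, 91.7 and 77.3 FPKM in high-intake against 98.6, 92.6 and 117 FPKM in control geese. ADIPOQ overlapped between the groups in both depots. Per 1000 FPKM of this sum, OCA2 stood at 1.44, 2.40 and 3.15 FPKM in high-intake AA and at 0.0467, 0.164 and 0.165 FPKM in control AA. In SA the same quantity was 2.47, 2.12 and 5.54 FPKM in the high-intake group and 0.494, 0.422 and 0.213 FPKM in the control group. The groups did not overlap on this scale in either depot, and the share of all genes that do so on it was not computed.

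HERC2 itself was measured at 15.0, 9.97 and 12.8 FPKM in high-intake AA, against 15.7, 15.2 and 17.1 FPKM in control AA. All high-intake AA libraries lay below the controls, in a depot where 7.17% of the genes tested were lower without overlap. The difference of -0.34 on the log2(FPKM + 1) scale (SE 0.18, limma, adjusted p = 0.326) did not pass the threshold of 0.05. In SA HERC2 stood at 12.1, 13.7 and 9.15 FPKM in high-intake geese and 14.0, 7.02 and 12.1 FPKM in control geese, and in liver at 7.54, 6.58 and 9.60 FPKM in high-intake geese and 8.05, 7.81 and 6.86 FPKM in control geese. The groups overlapped in both tissues, with log2 changes of 0.10 in SA (adjusted p = 0.933) and 0.04 in liver (adjusted p = 0.90) in limma's test. The sign in SA turned to -0.19 when each library was centred on its median and to -0.16 without C2-SA.

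Within 500000 bases on either side of OCA2 the annotation holds 13 genes, of which 10 had values. On the far side of HERC2 lie NIPA1 and NIPA2 (magnesium transporters in mammals), CYFIP1 (a subunit of an actin regulator), TUBGCP5 (part of the gamma-tubulin complex), SLC9A7 (a sodium/proton exchanger of the Golgi), RP2 (a GTPase activator of photoreceptors and other ciliated cells) and JADE3. On the other side lies GABRG3, a subunit of the GABA-A receptor, whose gene model ends 160147 bases from OCA2. None of these 9 neighbours passed the threshold in a feeding test in limma, although CYFIP1 did in SA with a pseudocount of 0.1 (-2.41), where T2-SA was listed at 0. At an unadjusted p under 0.05, 1 of the 9 reached it in AA (RP2), 2 of 8 tested in SA (RP2 and CYFIP1) and 1 of 8 tested in liver (JADE3), beside 20.3% of all genes in AA, 12.8% in SA and 24.1% in liver.

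RP2 was the neighbour with the clearest separation. It stood at 13.8, 17.7 and 11.5 FPKM in high-intake AA, against 8.91, 5.57 and 5.55 FPKM in control AA. In SA it stood at 16.5, 20.4 and 16.6 FPKM in the high-intake group, against 10.4, 3.64 and 10.7 FPKM in the control group. The groups did not overlap in either depot, where 20.1% of the genes tested in AA and 13.1% in SA were higher without overlap, and they overlapped in liver. The log2 changes were 1.01 in AA (limma, adjusted p = 0.114) and 1.14 in SA (limma, adjusted p = 0.283), each less than that of OCA2.

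GABRG3, on the other side, was low, at 0.582, 0.112 and 1.16 FPKM in high-intake AA against 0.175, 0.308 and 0.296 FPKM in control AA. In SA it did not pass the filter of a mean FPKM above 0.1. It stood there at 0.0944 to 0.187 FPKM in the high-intake group and 0.0219 to 0.0351 FPKM in the control group. These groups did not overlap, and of the genes tested in SA, without GABRG3, 13.1% were higher without overlap. CYFIP1 was listed at 0 in C1-AA and T2-SA and between 13.2 and 47.2 FPKM in the other 10 adipose libraries, so that its log2 changes of 2.05 in AA and -1.34 in SA rest on values that may be failed estimates. The log2 changes of NIPA1, NIPA2, TUBGCP5, SLC9A7 and JADE3 lay between -0.07 and 0.52 in adipose, and their groups overlapped in both depots.

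The same window holds 3 lncRNA loci of the study. XLOC_145578, at 1966681 to 1972850 between GABRG3 and OCA2, stood at 0.473, 0.149 and 0.931 FPKM in high-intake AA and at 0.164, 0.112 and 0.300 FPKM in control AA. Its SA values were 0.0123, 0.0774 and 0.0536 FPKM in high-intake geese and 0.0738, 0.309 and 0.124 FPKM in control geese. The groups overlapped in both depots. XLOC_146775 (2664878 to 2666185) lay between 0.377 and 1.13 FPKM in all 12 adipose libraries, and XLOC_145509 (1715669 to 1717099) was listed at 0 in 8 of them.

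**Figure D2:**
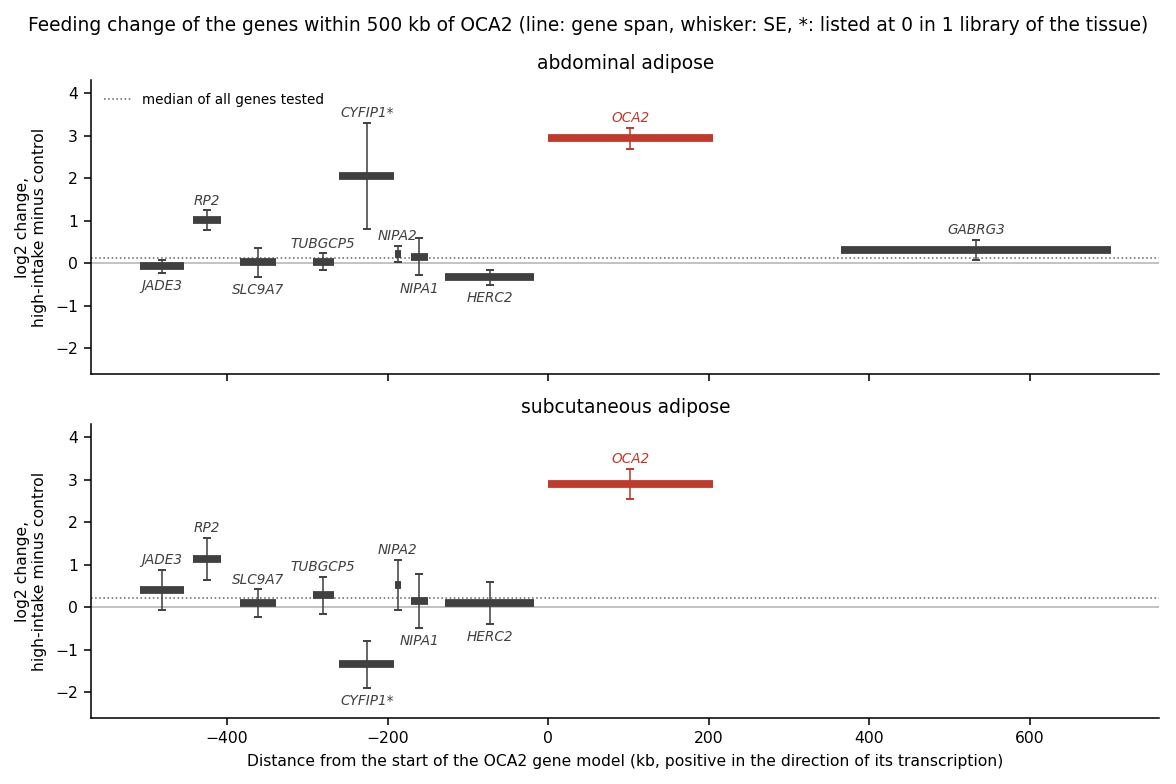
Feeding change of each gene with values near OCA2 that passed the filter, plotted at its distance in kb from the start of OCA2, as the difference on the log2(FPKM + 1) scale between high-intake and control geese (line, span of the gene; whisker, SE; dotted line, median of all genes tested). OCA2 stood at 2.93 in AA and 2.90 in SA, while HERC2 next to it stood at -0.34 and 0.10.

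The enzymes that make melanin were nearly undetected. TYR, the rate-limiting enzyme, was listed at 0 in T1-AA and T2-AA and stood at 0.0461 FPKM in T3-AA, while all 3 control AA libraries were listed at 0. In SA it measured 0.0376 FPKM in T1-SA and was listed at 0 in T2-SA and T3-SA, against 0.0222, 0.326 and 0.0597 FPKM in the controls (C1 to C3). TYRP1 was listed at 0 in all 6 AA libraries. In SA it stood at 0.0222 FPKM in T2-SA and was listed at 0 in T1-SA and T3-SA, against 0.0526, 0.0446 and 0.0473 FPKM in the control libraries. DCT reached 0.0282 FPKM at most in high-intake adipose, against 0.0496 FPKM in control AA and 0.0295, 0.279 and 0.130 FPKM in control SA.

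The highest values of TYR and DCT thus came from C2-SA, a control library, and T3-SA, the library with the highest OCA2, listed all 3 enzymes at 0. These libraries differ in their low values, with 1.52% of all mRNAs listed at 0 in C2-SA and 8.30% in T3-SA. In C2-SA TYR ranked only at the percentile 14.7 and DCT at 12.3. TYR ranked at 12.1 in T3-AA and DCT at 11.5 in T2-SA. None of the 3 genes passed the filter of a mean FPKM above 0.1 in any feeding comparison, so no test was made. In the livers they lay between 0 and 0.0492 FPKM. Of the other structural pigment genes, PMEL, which forms the fibrils of the melanosome, and MLANA have no row in the table used here. GPR143, a melanosome receptor, reached 0.0309 FPKM at most in high-intake adipose, against 0.0541 FPKM in control AA and 0.083, 0.424 and 0.237 FPKM in control SA. The list of melanosome pigment proteins (7 of 10 with values) held 2 tested genes besides OCA2 in AA, 3 in SA and 2 in liver, and limma called none of them. GPR143 is among those in SA only through its control libraries, and no weight is put on its outcome there. At an unadjusted p under 0.05 only SLC45A2 in liver passed.

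The melanosome transporters SLC24A5 and SLC45A2 were measured in adipose but did not separate as OCA2 did. SLC24A5, a sodium, potassium and calcium exchanger, stood at 1.57, 1.71 and 1.80 FPKM in high-intake AA, against 1.85, 1.97 and 1.90 FPKM in control AA. In AA it thus lay below all controls, as did 7.17% of the genes tested there. Its log2 change was -0.11 in AA (limma, adjusted p = 0.63), 0.07 in SA (adjusted p = 0.93) and -0.20 in liver (adjusted p = 0.48). SLC45A2, a sugar and proton transporter that also acts on melanosome pH, stood at 0.53, 0.48 and 0.44 FPKM in high-intake AA and 0.40, 0.63 and 0.51 FPKM in control AA. Its SA values were 0.27, 0.39 and 0.52 FPKM in the high-intake group and 0.45, 0.78 and 0.47 FPKM in the control group, and the groups overlapped in both depots.

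**Figure D3:**
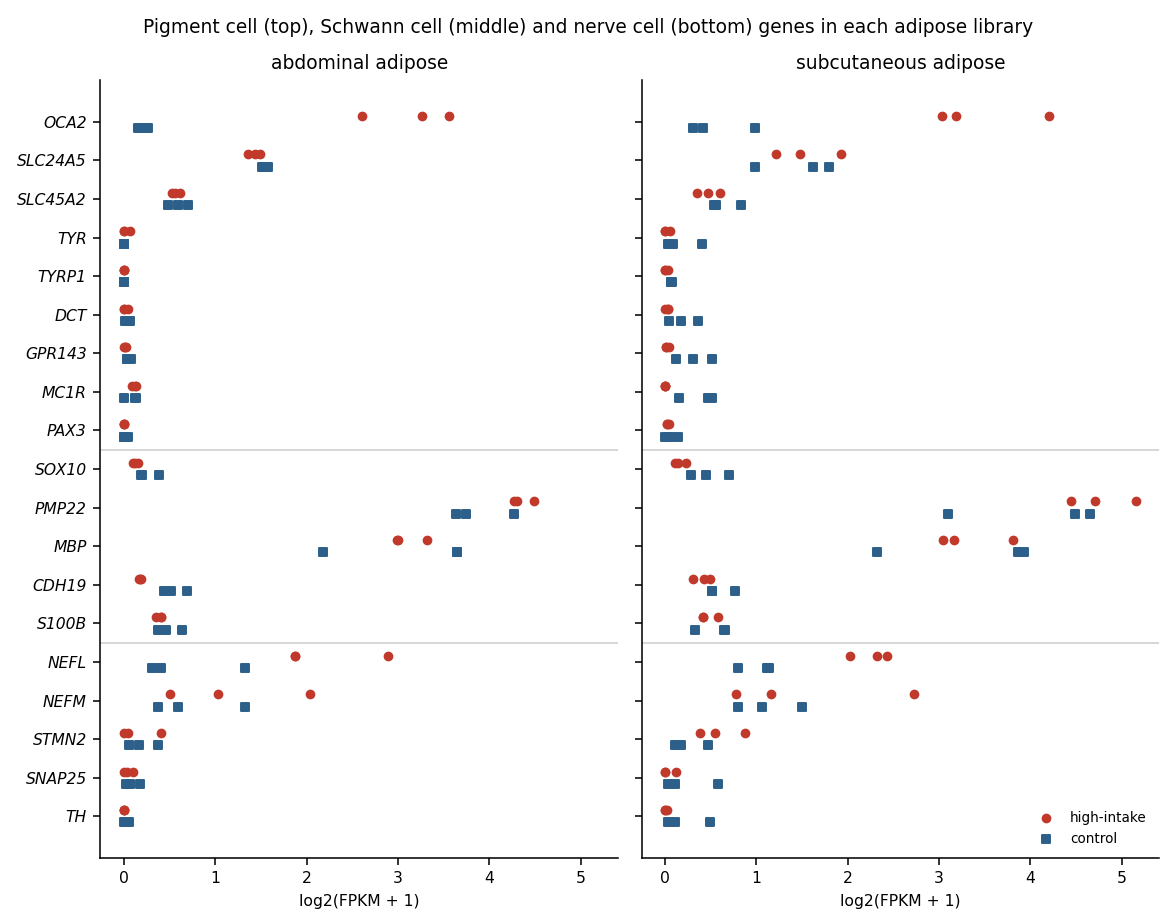
Level of pigment cell, Schwann cell and nerve cell genes as log2(FPKM + 1) in each adipose library, with high-intake geese (circles) above control geese (squares). OCA2 stood at 5.07 to 17.4 FPKM in high-intake adipose and TYR at 0.0461 FPKM or less in the same 6 libraries, and NEFL was higher in both depots of high-intake geese.

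Summed over the 12 of 15 melanocyte markers with values, which include MITF, KIT and EDNRB but not OCA2, the level was 12.7 to 14.2 FPKM in high-intake AA and 14.1 to 20.4 FPKM in control AA. In SA it was 9.18 to 12.04 FPKM in the high-intake group and 11.2 to 17.8 FPKM in the control group. The sum was carried by EDNRB and MITF, which many cells other than melanocytes make. EDNRB2, a related receptor on the marker list, has no gene of that name in the annotation. Among the defining markers, TYRP1 and 1 other, PAX3, were listed at 0 in all 3 high-intake AA libraries, and MC1R, the melanocortin receptor of melanocytes, in all 3 high-intake SA libraries. In high-intake SA PAX3 stood at 0.0145 to 0.0285 FPKM, and in high-intake AA MC1R stood at 0.0657 to 0.0996 FPKM. Control AA libraries also listed TYRP1 at 0 throughout, and PAX3 in C1-AA and C2-AA. KIT, a member of the list that was higher in both high-intake depots, is described below with its values in each library. The part of melanocytes in the OCA2 level was not tested.

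MITF stood at 4.84, 3.39 and 3.84 FPKM in high-intake AA, against 5.91, 2.99 and 6.14 FPKM in control AA. In SA it measured 4.42, 4.47 and 4.51 FPKM in high-intake geese, against 8.69, 2.73 and 9.56 FPKM in control geese, where C2-SA was the low library. In FPKM the groups overlapped in every tissue. As TPM the high-intake SA libraries stood at 11.2, 14.1 and 11.8, below all controls at 24.1, 25.4 and 31.2. By rank among all mRNAs they also lay below them, between the percentiles 53.2 and 54.9 against 61.0 and 72.6. The share of all genes that do so on these scales was not computed. In AA the groups overlapped as TPM and by rank too. The log2 changes were -0.22 in AA (limma, adjusted p = 0.657), -0.41 in SA (adjusted p = 0.696) and -0.07 in liver (adjusted p = 0.846), where it stood at 1.89, 1.20 and 2.03 FPKM in high-intake and 1.47, 1.94 and 2.05 FPKM in control geese. Without C2-SA the change in SA was -0.89 (limma, adjusted p = 0.19).

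KIT was the only member besides OCA2 to be higher without overlap in adipose. It stood at 1.52, 3.54 and 2.42 FPKM in high-intake AA, against 0.947, 0.483 and 1.25 FPKM in control AA. In SA it stood at 0.999, 1.62 and 1.31 FPKM in high-intake geese, against 0.680, 0.432 and 0.762 FPKM in control geese. In liver the order was the opposite, at 0.0962, 0.144 and 0.140 FPKM in high-intake geese against 0.290, 0.198 and 0.367 FPKM in control geese. The groups did not overlap in any of the 3 tissues. The share of all genes tested that were higher without overlap was 20.1% in AA and 13.1% in SA, and in liver 15.4% were lower and 16.1% higher without overlap.

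The log2 change of KIT was 0.86 in AA (SE 0.26, limma, adjusted p = 0.150), 0.50 in SA (SE 0.23, adjusted p = 0.309) and -0.19 in liver (SE 0.09, adjusted p = 0.234), and none passed the threshold. The change in adipose exceeded that in liver by 1.05 for AA (SE 0.28, limma, adjusted p = 0.163) and by 0.69 for SA (SE 0.20, adjusted p = 0.226). With the goose as a block these adjusted p were 0.0956 and 0.175. Per 1000 FPKM of the adipocyte sum, KIT stood at 0.431, 0.986 and 0.705 FPKM in high-intake AA against 0.402, 0.478 and 1.04 FPKM in control AA, and the groups overlapped there and in SA. As TPM they overlapped in both depots too. KIT also marks mast cells. The mast cell list (4 of 7 genes with values, most of the sum from HPGDS, a prostaglandin synthase) summed to 18.2 to 63.4 FPKM in high-intake AA against 4.20 to 9.39 FPKM in control AA, and to 5.74 to 11.7 FPKM in high-intake SA against 2.27 to 8.49 FPKM in control SA. HPGDS stood at 173 to 1758 FPKM in the livers, where KIT was lowest. GATA2, also on the list, stood at 0.751, 0.840 and 1.08 FPKM in high-intake AA, against 1.37, 1.98 and 1.14 FPKM in control AA. In SA it stood at 0.499, 0.989 and 0.869 FPKM in high-intake geese, against 1.29, 1.23 and 1.02 FPKM in control geese. GATA2 thus lay below all controls in both depots, as did 7.17% of the genes tested in AA and 7.78% in SA. HDC, which makes histamine, stood at 0.06 to 0.29 FPKM in high-intake adipose and 0.15 to 0.49 FPKM in control adipose. The part of mast cells in the KIT level was not tested.

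EDNRB, a receptor of endothelins that endothelial and other cells also carry, had negative log2 changes in all 3 tissues, none past the threshold. It stood at 4.01, 3.81 and 5.44 FPKM in high-intake AA, against 4.79, 13.9 and 6.05 FPKM in control AA. Its SA values were 1.49, 2.61 and 3.00 FPKM in high-intake geese, against 4.82, 4.05 and 3.28 FPKM in control geese. The high-intake libraries lay below all controls in SA, where 7.78% of the genes tested did so, and overlapped them in AA. The log2 changes were -0.66 in AA (limma, adjusted p = 0.34), -0.60 in SA (adjusted p = 0.481) and -0.32 in liver (adjusted p = 0.358), where it stood at 5.88, 8.06 and 8.19 FPKM in high-intake geese and 7.75, 9.70 and 10.8 FPKM in control geese. Without C2-AA, the highest library, the change in AA was -0.25 (limma, adjusted p = 0.60).

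SOX10 was low everywhere. It stood at 0.0868, 0.0698 and 0.108 FPKM in high-intake AA, against 0.145, 0.306 and 0.137 FPKM in control AA. In SA it measured 0.103, 0.0799 and 0.172 FPKM in high-intake geese, against 0.217, 0.627 and 0.367 FPKM in control geese, with the highest value again in C2-SA. The high-intake libraries lay below all controls in both depots, as did 7.17% of the genes tested in AA and 7.78% in SA. As TPM they did so too. Among all mRNAs of its library, SOX10 ranked between the percentiles 14.4 and 17.2 in high-intake AA and 16.2 and 23.9 in control AA. In SA it ranked between 17.5 and 21.4 in high-intake geese and 21.2 and 28.2 in control geese. The groups thus overlapped by rank in both depots. The log2 changes were -0.13 in AA and -0.32 in SA (limma, adjusted p = 0.392 in SA). SOX10 passed the filter in AA only through its control libraries, so its change there is given without a test. In liver, at 0.0519 FPKM or less, it did not pass.

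Of the members other than OCA2, 5 passed the filter in AA, 5 in SA and 4 in liver, and limma called none of them in any feeding comparison. SOX10 is among the 5 in AA only through its control libraries, and no weight is put on its outcome there. Over all genes tested, OCA2 included, 0.0878% were called in AA, 2.13% in SA and 2.19% in liver. At an unadjusted p under 0.05, 1 member passed in AA (KIT), 1 in SA (KIT) and none in liver, beside 20.3% of all genes in AA, 12.8% in SA and 24.1% in liver. For the difference between the feeding changes of AA and liver 4 of the same members were tested, where 0.137% of all genes were called. For that of SA and liver 5 were tested, SOX10 only through its SA libraries, where 0.212% of all genes were called. None passed, and KIT alone had an unadjusted p under 0.05 in both, beside 12.8% of all genes for AA and 9.27% for SA. Without C2-SA the number of genes called in SA was 4 in place of 283, so the threshold in that depot depends on this library.

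Schwann cell genes, SOX10 included, lay about evenly on both sides of 0. Of the 30 genes on that list 16 had values, among them PMP22, a myelin protein and the most abundant of them, at 18.7, 18.3 and 21.5 FPKM in high-intake AA against 18.3, 12.4 and 11.5 FPKM in control AA. In AA 7 of 15 tested genes lay above 0 (median log2 change -0.02), in SA 7 of 16 (median -0.02, but 4 of 16 and -0.32 after median centring) and in liver 5 of 12 (median -0.07), and limma called none (2, 1 and 1 had an unadjusted p under 0.05). Over all genes 63.2% lay above 0 in AA (median 0.12), 69.0% in SA (0.21) and 52.9% in liver (0.03). SOX10 in AA, FA2H and MAL in SA and CDH19 in liver passed the filter only through control libraries. No weight is put on their signs there. CDH19, an adhesion protein of Schwann cell precursors, stood at 0.12, 0.14 and 0.13 FPKM in high-intake AA, against 0.43, 0.61 and 0.35 FPKM in control AA. It lay below all controls in SA as well, and 7.17% of the genes tested in AA and 7.78% in SA were lower without overlap. PMP22 and MPZL1, another gene of the list, were higher without overlap in AA, as were 20.1% of the genes tested there. Both overlapped in SA. MBP and S100B, other markers of these cells, overlapped between the groups in both depots. The part of Schwann cells in the OCA2 level was not tested.

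Of the nerve cell genes NEFL, the light neurofilament chain, passed the test. It stood at 4.38, 3.98 and 3.06 FPKM in high-intake SA, against 1.16, 0.74 and 1.20 FPKM in control SA, a log2 change of 1.24 (SE 0.31, limma, adjusted p = 0.0069). In AA it stood at 2.66, 6.45 and 2.65 FPKM in high-intake geese, against 1.498, 0.24 and 0.32 FPKM in control geese, a change of 1.53 that did not pass (limma, adjusted p = 0.12). The groups did not overlap in either depot, where 20.1% of the genes tested in AA and 13.1% in SA were higher without overlap. The call in SA was kept in 2 of 6 fits that each left out 1 library and lost in the others, among them that without C2-SA. It was also lost after median centring, without a variance trend and without the filter.

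NEFL was the only called gene of its list. Of the 24 genes 17 had values, and 6 of 8 tested genes lay above 0 in AA (median log2 change 0.41), 6 of 11 in SA (0.23, but 5 of 11 and -0.07 after median centring) and 1 of 3 in liver (-0.02), beside a median over all genes of 0.12 in AA, 0.21 in SA and 0.03 in liver. UCHL1, a deubiquitinase of neurons and the most abundant gene of the list, stood at 25.6, 28.5 and 22.1 FPKM in high-intake SA against 11.1, 3.60 and 10.4 FPKM in control SA (log2 change 1.61, limma, adjusted p = 0.07), and it passed the threshold after median centring (1.32) and without C1-SA (1.86). TH and DBH, the enzymes of noradrenaline synthesis in sympathetic nerves, stood at 0.0217 FPKM or less in high-intake adipose. The summed nerve cell markers (7 of 10 with values) came to 3.77 to 6.99 FPKM in high-intake AA against 0.798 to 3.39 FPKM in control AA, and to 4.62 to 10.6 FPKM in high-intake SA against 2.59 to 3.56 FPKM in control SA. NEFL and NEFM carried the sum. ELAVL4, GAP43 and SNAP25, other neuronal genes, passed the filter in SA only through their control libraries. Their log2 changes of -0.20, -0.15 and -0.20 there are given without a test, and these genes are counted among the 11 above. Their highest adipose values (0.383, 0.414 and 0.496 FPKM) all came from C2-SA, a control library. NPY, another gene of the list, stood at 1.07, 0.964 and 1.14 FPKM in high-intake SA against 0.552, 0.803 and 0.196 FPKM in control SA. Its groups did not overlap in SA, where 13.1% of the genes tested were higher without overlap, and they overlapped in AA. The part of nerve cells in the OCA2 level was not tested.

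In the lists of genes that work with OCA2 in pigment cells, limma called no other gene in a feeding test. At an unadjusted p under 0.05 stood 3 ion transport genes besides OCA2 in AA, 2 in SA and 4 in liver, and 8, 2 and 4 genes of melanosome biogenesis in the same order of tissues, beside 20.3%, 12.8% and 24.1% of all genes. MFSD12, a transporter of pigment organelles and lysosomes, and CLCN7, a lysosomal chloride and proton exchanger, were among them in both depots. MFSD12 stood at 5.53, 5.28 and 3.64 FPKM in high-intake AA against 1.73, 3.24 and 2.71 FPKM in control AA. CLCN7 stood at 9.75, 12.1 and 8.30 FPKM in high-intake AA against 6.42, 7.59 and 5.03 FPKM in control AA. Of 12 genes for melanosome ion transport and pH, 7 of 11 tested lay above 0 in AA (median log2 change 0.03), 9 of 12 in SA (0.20) and 6 of 10 in liver (0.10), OCA2 included in adipose, while median centring left 5 of 11 (-0.11) in AA and 5 of 12 (-0.10) in SA. ATP7A, a copper pump that supplies tyrosinase and the most abundant of them, stood at 17.9, 12.8 and 16.1 FPKM in high-intake AA and 18.5, 10.5 and 13.9 FPKM in control AA. TPCN2, a channel of lysosomes and melanosomes, had log2 changes of 0.55 in AA (limma, adjusted p = 0.16) and 0.67 in SA (adjusted p = 0.48). Like MFSD12 and CLCN7 it was higher without overlap in both depots, as were 20.1% of the genes tested in AA and 13.1% in SA. SLC24A5, of the same list, lay below all controls in AA. SLC7A11, also of that list, passed the filter in SA only through control libraries.

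Genes for melanosome biogenesis and transport, which serve lysosome-related organelles in most cells, lay mostly above 0 in adipose. Of 27 listed genes 23 had values, and 17 of 22 tested lay above 0 in AA (median log2 change 0.28) and 20 of 23 in SA (0.58), beside 63.2% and 69.0% of all genes. With each library centred on its median these were 13 of 22 (0.14) and 15 of 23 (0.29), and without C2-SA the SA values were 17 of 22 and 0.20. In liver 15 of 22 lay above 0 (0.15), beside 52.9% of all genes. In SA RAB38 passed the filter only through control libraries and MLPH only through high-intake libraries. The most abundant, BLOC1S5, stood at 32.1, 32.1 and 33.7 FPKM in high-intake AA against 27.3, 28.8 and 26.4 FPKM in control AA. RAB32, a small GTPase that brings pigment enzymes to melanosomes, had a log2 change of 1.17 in AA (limma, adjusted p = 0.12), and RAB38, its melanocyte relative, was listed at 0 in all 6 AA libraries.

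Melanocyte signals and transcription factors lay mostly below 0, with 5 of 18 tested genes above 0 in AA (median log2 change -0.18), 6 of 20 in SA (-0.21) and 4 of 17 in liver (-0.06), and limma called none (4, 4 and 2 had an unadjusted p under 0.05). The share of all genes above 0 was 63.2% in AA (median 0.12), 69.0% in SA (0.21) and 52.9% in liver (0.03). The counts hold SOX10 in AA and MC1R and EDN3 in SA, which passed the filter there only through control libraries. No weight is put on their signs. ZEB2, a transcription factor of many mesenchymal cells and the most abundant of the list, stood at 88.3, 62.3 and 71.0 FPKM in high-intake AA against 69.3, 40.0 and 42.3 FPKM in control AA. SNAI2, a factor of neural crest and mesenchyme, stood at 20.1, 19.5 and 21.1 FPKM in high-intake SA, against 70.2, 32.1 and 66.3 FPKM in control SA (log2 change -1.35, limma, adjusted p = 0.30), and it passed the threshold after median centring (-1.65) and without C2-SA (-1.71). KITLG, the ligand of KIT, stood at 6.27, 7.53 and 7.37 FPKM in high-intake AA and 7.05, 12.01 and 7.26 FPKM in control AA, and the groups overlapped.

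In the remaining families EDNRA, the other endothelin receptor and, by its mean in adipose, the most abundant gene of the endothelin list, fell in liver. It stood at 2.58, 1.78 and 2.74 FPKM in high-intake liver, against 6.19, 5.22 and 7.02 FPKM in control liver (log2 change -1.09, limma, adjusted p = 0.043). This call was lost in each of the 6 fits that left out 1 library, without the filter and with a replicate block. In AA 1 of 7 endothelin genes lay above 0, in liver 2 of 7 and in SA 4 of 7, or 2 of 7 after median centring. EDN3, of this list, passed the filter in SA only through control libraries. Of the 3 tested relatives in the MITF family (MITF, TFEB, TFEC) and the 3 of the HERC family (HERC1, HERC2, HERC4) none was called in any tissue. HERC1 in liver had a log2 change of -1.07 (limma, adjusted p = 0.11) and passed without T3-L (-1.40). All 3 HERC genes lay above 0 in SA and none after median centring. HERC4, the most abundant of the last family, stood at 54.7, 43.5 and 69.4 FPKM in high-intake AA and 66.8, 40.4 and 74.7 FPKM in control AA.

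**Figure D4:**
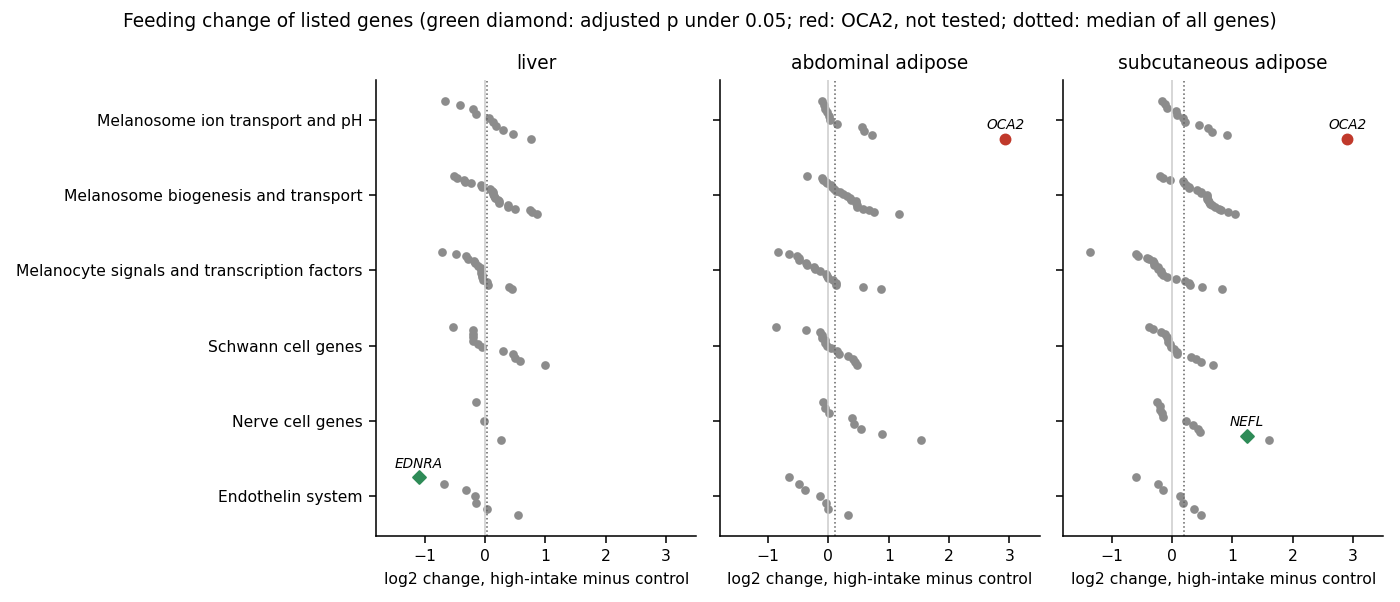
Feeding change of each tested gene of 6 lists on the log2(FPKM + 1) scale, high-intake minus control geese, in liver, AA and SA (green diamonds, adjusted p under 0.05 in limma; red, OCA2, given without a test; dotted line, median of all genes). OCA2 stood at 2.93 in AA and 2.90 in SA, and of the other genes NEFL in SA (1.24) and EDNRA in liver (-1.09) passed the threshold.

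Levels were also compared between tissues of the 3 control geese, and since the control adipose libraries also served in the choice of OCA2, its values are given there as a description. On the log2(FPKM + 1) scale OCA2 stood higher in control SA than in control liver by 0.56 (SE 0.16), and by 0.28 after median centring. It passed the filter in that comparison only through SA, with a mean of 0.517 FPKM in SA against 0.00956 FPKM in liver, and did not pass it in AA against liver. Between SA and AA of control geese the difference in OCA2 was 0.36 (SE 0.17).

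In AA against liver, HERC2 rose by 0.99 (SE 0.14, limma, adjusted p = 6.2e-04), MITF by 1.05 (SE 0.24, adjusted p = 0.0067) and KIT by 0.54 (SE 0.16, adjusted p = 0.021). These were 3 of the 5 members tested, SOX10 among the 5 only through AA, beside 62.5% of all genes. In SA against liver, where 35.6% of all genes were called, MITF rose by 1.37 (SE 0.38, limma, adjusted p = 0.0078) and EDNRB differed by -1.05 (SE 0.39, adjusted p = 0.039). SOX10, like OCA2, passed the filter there through its SA libraries, so its difference of 0.43 (SE 0.14) is given without a test. HERC2 in AA and MITF in both depots were called in each of the 6 fits that left out 1 library, KIT in AA in 2 of 6 and EDNRB in SA in 2 of 6. Between SA and AA limma called none of the 5 other members tested, beside 0.275% of all genes, and none of them had an unadjusted p under 0.05.

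Over the 12 adipose libraries the genes with levels most like OCA2 were sought by Pearson's r on log2(FPKM + 1) among 8691 named genes with a mean above 1 FPKM. The points share geese, libraries and above all the feeding groups, so r mainly orders genes by how cleanly high-intake and control libraries part. Among the first 10 were STBD1 (r = 0.94), DGAT2 (0.94), CHODL (0.93), GABRA4 (0.92), BAG4 (0.92), AIFM2 (0.92), MASTL (0.92), SCNN1B (0.91) and PYCR1 (0.91). STBD1 tethers glycogen to membranes, DGAT2 catalyses the last step of triacylglycerol synthesis and PYCR1 makes proline. CHODL is a membrane lectin, GABRA4 a GABA-A receptor subunit, AIFM2 a ubiquinone reductase, MASTL a mitotic kinase, SCNN1B a sodium channel subunit and BAG4 a chaperone regulator.

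STBD1 stood at 17.9, 25.7 and 19.3 FPKM in high-intake AA and 25.1, 30.2 and 25.5 FPKM in high-intake SA, against 4.03, 3.42 and 3.88 FPKM in control AA and 5.74, 1.70 and 6.50 FPKM in control SA. Within the 6 high-intake adipose libraries r with OCA2 was 0.24 for STBD1, 0.45 for DGAT2 and -0.83 for PYCR1, and the highest of the 10 was 0.76, for AIFM2. The likeness therefore did not extend to the differences among high-intake libraries for most of them. Of the members, KIT had an r of 0.70, HERC2 -0.27, MITF -0.29 and EDNRB -0.53 over the 12 libraries. With Spearman's rho 1 of the 10 genes was shared with the first 10 by Pearson's r, and 1 was shared when C2-SA was left out.

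**Figure D5:**
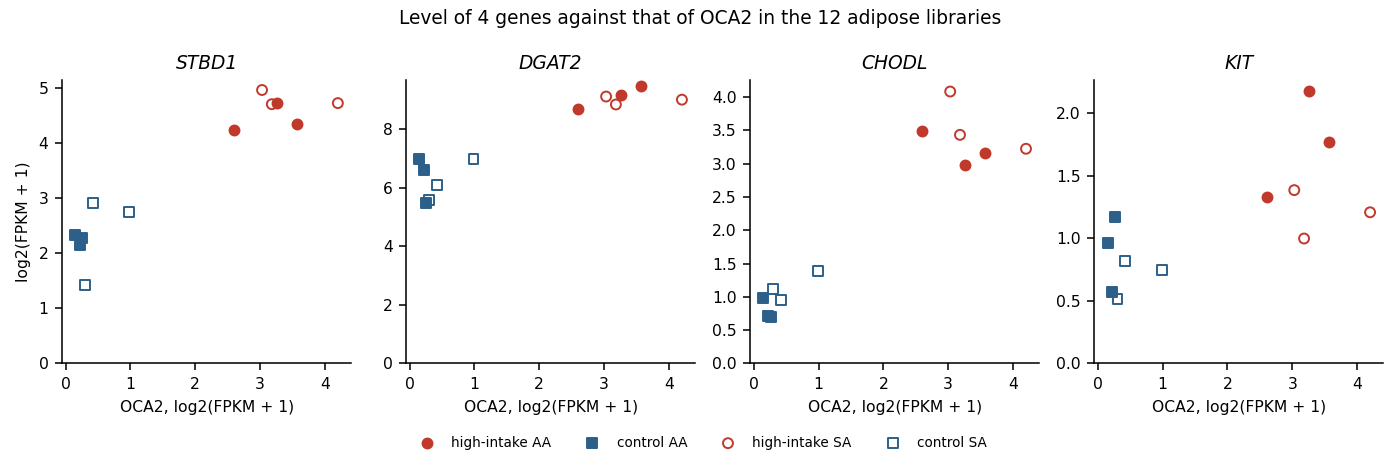
Level of the 3 genes most like OCA2 (STBD1, DGAT2, CHODL) and of KIT against that of OCA2, both as log2(FPKM + 1), in the 12 adipose libraries (circles, high-intake; squares, control; filled, AA; open, SA). The high-intake libraries form 1 cloud and the controls another for STBD1 (r = 0.94), while KIT (r = 0.70) overlaps between the groups when depots are mixed.

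Levels of other cell types in the same libraries were as follows. The sum of the keratinocyte list (9 of 15 genes with values) was carried by PPL alone. It came to 85.7 to 153 FPKM in high-intake AA and 155 to 189 FPKM in high-intake SA, against 22.8 to 102 FPKM in control AA and 53.0 (C2-SA) to 151 FPKM in control SA. SFN and PKP1, also on the list, stood at 0 to 0.12 and 0.05 to 0.08 FPKM in high-intake SA. In control SA they stood at 0.34 to 0.60 and 0.11 to 0.48 FPKM, highest in C2-SA. Both lay below all controls there, as did 7.78% of the genes tested, and passed the filter only through control libraries. In AA their groups overlapped. TP63, the defining factor of skin epithelium, stood at 0.08 to 0.21 FPKM in the 6 high-intake adipose libraries and at 0.10 to 0.78 FPKM in the controls, where C2-SA was highest. Endothelial genes (5 of 5) summed to 182 to 342 FPKM in high-intake AA and 153 to 246 FPKM in high-intake SA, against 162 to 318 FPKM in control AA and 87.2 to 186 FPKM in control SA. The part of these cell types in the OCA2 level was not tested.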

How the data were processed

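Libraries were made after ribosomal RNA depletion. Per the submitters' notes, paired reads were aligned by TopHat2 with Bowtie2 to the Anser cygnoides assembly, and Cufflinks 2.1.1 gave FPKM. The labels name Trizol for RNA isolation and the paper's methods the RNeasy Mini Kit. The authors deposited FPKM after adding 1 and taking logs of a base that is not named, read here as log2 values. Read as log2(FPKM + 1), exons hold 25.8% to 83.3% of the mapped fragments, whereas natural logs would give 150% to 1486%, and the values were converted back to FPKM. The members, lists and alternatives were chosen with earlier results of these data known.

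Differences were tested on log2(FPKM + 1) with limma 3.58.1 (moderated test with a variance trend, two-sided) in R 4.3.3 and Benjamini-Hochberg adjustment over all genes tested, at a threshold of 0.05, after genes were dropped whose mean over the compared libraries did not exceed 0.1 FPKM. The script was tested on simulated data. Feeding was compared within a tissue, 3 geese against 3. Named were all members, list genes past the threshold, the most abundant gene of each list, all genes with values within 500000 bases of OCA2 and the 10 with the highest r among genes with a mean FPKM above 1. Names of other genes were chosen after their values were seen.

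Geese C1 to C3 and T1 to T3 gave all 3 tissues, so tissues pair within a goose (r of deviations 0.03 to 0.54, above 0.1 in 14 of 18 pairs). Equal numbers in both feeding groups do not pair birds. Alternatives were a pseudocount of 0.1, no filter, median centring, no variance trend, each library left out, a block, TPM, and Spearman's rho. No genome or sequence was used here, so no sequence is printed and promoter motifs were not analysed here. A few genes covered by these rules are not reported here.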

Additional observations from a re-analysis of the deposited data

Results flagged for a closer look

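KIT, the receptor of the stem cell factor, had FPKM values above all controls in both high-intake depots and below all control livers in high-intake livers. Of all genes tested, 20.1% in AA and 13.1% in SA were higher without overlap, and 15.4% in liver were lower without overlap. As TPM, and per 1000 FPKM of adipocyte genes, the groups overlapped in both depots. The difference between the feeding change in AA and that in liver was 1.05 on the log2(FPKM + 1) scale (limma, adjusted p = 0.163), and for SA it was 0.69 (limma, adjusted p = 0.226). Neither passed the threshold, and over the 6 fits that each left out 1 goose the differences were 0.85 to 1.25 and 0.61 to 0.77. With median centring the difference for SA was 0.43. The livers held little of the transcript, at 0.0962 to 0.367 FPKM.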

How the results depend on the processing

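Of the members other than OCA2, 0 were called in the 5 feeding and interaction comparisons under every setting run. In AA against liver 3 members were called, but 1 after median centring, 5 without the filter and 2 to 4 with 1 library left out. In SA against liver 4 were called, of which OCA2 and SOX10 passed the filter through SA, but 2 after centring, 1 without a variance trend and 2 to 6 with 1 library left out. Of the 10 genes most like OCA2, 1 was shared with Spearman's rho and 1 without C2-SA. Signs turned after median centring for SOX10 in AA against liver (-0.29), KIT in SA against AA (0.034), HERC2 by feeding in SA (-0.19) and HERC2 in SA minus liver (-0.20). As TPM, the ratio of HERC2 means was 0.683 in SA and 0.997 in liver. With 1 library or goose left out, HERC2 ranged from -0.089 to 0.15 in liver (also -0.018), -0.16 to 0.29 in SA (also -0.014) and -0.23 to 0.34 in SA minus liver (also -0.17), MITF from -0.16 to 0.075 in liver and -0.46 to 0.062 in AA minus liver, and EDNRB from -0.57 to 0.039 in AA minus liver. The causes were not tested. The block on goose or replicate number changed no call of a member (0 by feeding, 3 in AA and 4 in SA against liver), though it moved the genes called in AA minus liver to 89 in place of 17 and in liver feeding to 1 in place of 257. The numbers of all genes called by feeding also moved, to 0 to 238 in liver, 0 to 245 in AA (11 in the full set) and 4 to 715 in SA (283 in the full set) with 1 library left out. Without the filter they were 80 in liver, 0 in AA and 1 in SA. In SA they moved to 38 after centring and to 1 without a variance trend. Between control SA and AA 37 genes were called, but 220 with the block, 66 with a pseudocount of 0.1, 5 without the filter, 75 after centring and 1 without a variance trend. In SA minus liver 27 were called, but 14 with that pseudocount, 17 without the filter, 45 after centring and 11 without a variance trend. In AA minus liver 10 were called without the filter. Only 3 geese per group and unknown fragment counts limit what could be detected, and in SA the spread was taken as common to genes of like level.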
